A study of Homo sapiens with 8 samples.

Results

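SUM159 cells, a triple-negative breast cancer line, were carried through 2 separate selections with the BET inhibitor JQ1, and the resulting cells were compared gene by gene. The selections are called JQ1-A and JQ1-B. Both received JQ1 at 100 nM for up to 18 passages. JQ1-A belonged to an experiment whose other arms were DMSO, paclitaxel and JQ1+paclitaxel, and JQ1-B to an experiment whose other arms were palbociclib and JQ1+palbociclib. Cells were chosen by their library label, which gave 697 cells for JQ1-A and 868 for JQ1-B, 1565 of the 5738 cells in the series. Libraries without drug were the pre-treatment cells and the DMSO arm, with 1061 cells together. The combination libraries received the same 100 nM JQ1 with 0.6 nM paclitaxel or 160 nM palbociclib. All cells carried a library of lineage barcodes, and each library pooled equal numbers of cells from triplicate cultures, so a selection is 1 library and has no replicate of its own. No vehicle library of the palbociclib experiment was analysed here.

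BET proteins, such as BRD2, bind acetylated histones and bring the elongation factor P-TEFb to promoters and enhancers. JQ1 occupies their acetyl-lysine pocket and displaces them from chromatin. Genes that depend on dense occupancy by BET proteins, among them many growth-control and inflammatory genes, are known to lose transcription first, and cells that survive long exposure can settle into an altered expression state.

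Depth was close between the selections. JQ1-A held 16181822 unique molecular identifiers (UMIs, each counting 1 captured mRNA molecule) and JQ1-B held 20301289, with medians of 21529 and 21605.5 UMIs per cell. No cell barcode was shared between them. The median share of mitochondrial UMIs was 5.351% in JQ1-A and 5.029% in JQ1-B, and 18 and 2 cells, respectively, exceeded 15%. Defining markers of SUM159-type cells were present in both, with summed levels of 6030 and 6280 CPM, the counts of a gene scaled to a common library total. Leukocyte markers summed to 8.71 and 12.3 CPM, luminal markers to 12.1 and 13.4 CPM, markers of other epithelial or kidney lines to 1.98 and 1.67 CPM, and none of the 3 endothelial markers was listed. The leukocyte gene PTPRC was seen in 0 of 650 JQ1-A cells and 1 of 837 JQ1-B cells after thinning to 10000 UMIs.

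The expression levels of the selections were close for most genes. Of 4313 genes at 20 CPM or more in the higher library, 3919 (90.9%) were close, meaning that the higher level exceeded the lower by at most 25%, and the median absolute log2 ratio was 0.12. Past 2-fold, with a 95% counting interval that left out equality, were 5 genes, or 0.116% of those compared. CXCL2, KRT75, SEPP1 and CXCL3 were higher in JQ1-A, and MMP1 was higher in JQ1-B. The count depends on the setting: it was 8 with TMM scaling (7 higher in JQ1-A), 7 with mitochondrially encoded genes left out of the total (6 higher in JQ1-A) and 3 with a floor of 50 CPM. At 1.5-fold there were 49 genes, of which 31 (0.719%) were higher in JQ1-A and 18 (0.417%) higher in JQ1-B. The interval of a gene's ratio had a median width of 0.288 log2 units and left out equality for 2002 genes (46.4%), so for most genes a difference was not detectable at this depth. Such intervals cover counting error only, and with 1 library per selection no difference between JQ1-A and JQ1-B has a replicate test.

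**Figure D1:**
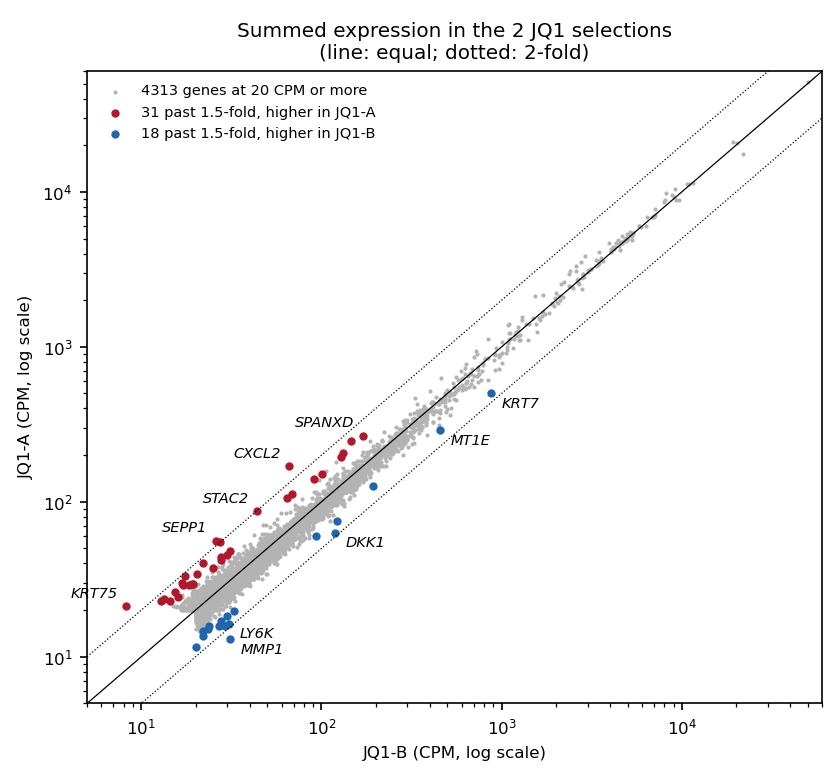
CPM of each gene in JQ1-B (x axis, log scale) and JQ1-A (y axis, log scale) for the 4313 genes at 20 CPM or more in the higher library. The solid line marks equal levels and the dotted lines 2-fold; red and blue points are the 31 and 18 genes past 1.5-fold, and 5 of them lie beyond 2-fold.

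For scale, the same counts were made for other pairs of libraries. The 2 libraries without drug, pre-treatment and DMSO, had 83.8% of genes close and 28 genes past 2-fold. JQ1-A and the JQ1+paclitaxel library of its own experiment had 90.3% close and 17 genes past 2-fold, whereas JQ1-B and JQ1+palbociclib had 75% and 50 genes. Against undrugged cells the selections were far more distant: 489 genes lay past 2-fold between JQ1-A and DMSO, and 453 between JQ1-B and pre-treatment. Each of these pairs is 1 library against 1, and the differences among the counts were not tested.

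Cells of the selections were partly separable. With 650 cells of each library thinned to 10000 UMIs, 57.6% of the 30 nearest neighbours of a JQ1-A cell and 66.1% of those of a JQ1-B cell came from the same library, where 50% would be complete mixing. Leaving out the 49 genes past 1.5-fold, an alternative chosen after seeing the data, gave 56.7% and 64.5%. The separation was thus nearly as large without the genes that differed most.

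The response that both selections shared was measured by testing JQ1-A and JQ1-B together against the pre-treatment and DMSO libraries. The gap between the selections counts as part of the spread in this test. Of 9288 genes, 1900 (20.5%) rose and 1845 (19.9%) fell at an adjusted p under 0.05 (edgeR quasi-likelihood test, Benjamini-Hochberg adjustment, 2 libraries against 2). Without JQ1-A the test called 1536 genes and without JQ1-B 2044, with the remaining selection assumed to vary like the undrugged libraries. The p-values measure the spread between these pooled libraries, and pre-treatment and DMSO are different groups joined as cells without drug. Of the called genes, 707 changed by 2-fold or more, 351 up and 356 down. Among the 188 of these at 20 CPM or more in JQ1-A or JQ1-B, 142 (75.5%) were close between the selections, against 91.3% of all 1907 called genes at that level. So the genes with the largest responses also held a larger share of ratios past 1.5-fold, 10.1% against 1.14% of all genes compared. These shares are a description.

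The gene with the highest rise was NR2F1, an orphan nuclear receptor linked to tumour cell dormancy. It measured 32 CPM in JQ1-A and 28.9 in JQ1-B, against 1.63 in pre-treatment and 3.39 in DMSO cells. Both selections stood above both undrugged libraries, which the rule for naming required (log2 fold change 3.90 ± 0.25 SE, adjusted p = 7.09e-05, edgeR). VSTM2L, a secreted antagonist of a neuroprotective peptide, measured 159 and 149 CPM in the selections against 22.8 and 26.6 without drug (log2 fold change 2.90 ± 0.13 SE). IFITM10, of the interferon-induced transmembrane family, measured 28.8 and 30.2 CPM against 2.98 and 6.12. For these 3 genes the selections were within 25% of each other.

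Other leading rises differed more between the selections. IGFBP2, a binding protein for insulin-like growth factors, measured 40.2 CPM in JQ1-A and 21.9 in JQ1-B, with 0.709 in pre-treatment and 6.21 in DMSO cells. Its rise was called (log2 fold change 3.53 ± 0.58 SE, adjusted p = 0.00195, edgeR), while JQ1-A stood 1.84-fold above JQ1-B (interval 1.63 to 2.08). STAC2, an adaptor of voltage-gated calcium channels, measured 87.3 and 43.9 CPM, against 8.08 and 23.0. MRC2, a collagen-uptake receptor, measured 29.5 and 19.0 CPM, and HTRA1, a secreted serine protease, 29.2 and 17.1 CPM. In the opposite direction, the imprinted retrotransposon-derived gene PEG10 measured 171 CPM in JQ1-A and 227 in JQ1-B, against 47.5 and 55.9 without drug. HCFC1R1 measured 225 and 280 CPM against 75.5 and 79.1. CXXC5, a zinc-finger regulator of WNT signalling, completed the 10 largest rises with 24.9 and 16.9 CPM against 4.04 and 8.66.

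The largest fall was that of IL32, a pro-inflammatory cytokine, which dropped to 2.97 CPM in JQ1-A and 4.88 in JQ1-B from 211 in pre-treatment and 132 in DMSO cells. Its log2 fold change was -5.18 ± 0.28 SE (adjusted p = 3.31e-05, edgeR). SAA1, an acute-phase protein, measured 2.90 and 3.74 CPM against 65.5 and 26.5, and the troponin TNNT1 8.16 and 7.88 CPM against 57.2 and 67.5. NUPR1, a stress-response chromatin protein, measured 5.13 and 6.70 CPM against 46.3 and 32.5. Rises and falls were named only if both selections lay on the same side of both undrugged libraries. That position held for 6971 of the 9288 tested genes (75.1%). IL32 was lower in JQ1-A than in JQ1-B (ratio 0.608, interval 0.422 to 0.867), while the intervals of SAA1, TNNT1 and NUPR1 included equality.

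Among the 10 largest falls, the gap between the selections was widest for the membrane protein gene TMEM98. It measured 1.48 CPM in JQ1-A and 5.12 in JQ1-B, against 26.8 and 24.7 without drug, so the fall was deeper in JQ1-A by a ratio of 0.29 (interval 0.178 to 0.455). TMEM98 lies under the 20 CPM floor used for comparing the selections. The remaining members of the 10 largest falls (RP11-527H14.3, CDC42EP1, DIO2, PRSS23 and SFTA1P) measured between 1.85 and 5.81 CPM in the selections and between 14.7 and 37.4 without drug. CDC42EP1, DIO2, PRSS23 and SFTA1P were also lower in JQ1-A, with ratios from 0.597 to 0.67 and intervals that left out equality. The interval of RP11-527H14.3 included equality (ratio 1.06, interval 0.676 to 1.67). These genes lie under the same floor.

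To see the 2 responses without a shared control, JQ1-A was set against DMSO and JQ1-B against pre-treatment. In JQ1-A, 51 of 4832 genes (1.06%) rose and 438 (9.06%) fell past 2-fold. In JQ1-B, 83 of 4834 (1.72%) rose and 370 (7.65%) fell. Of the genes that fell, 226 were shared, 51.6% of the JQ1-A list and 61.1% of the JQ1-B list, and of those that rose, 24 were shared, 47.1% and 28.9%. With TMM scaling the shared falls numbered 89 and the shared rises 76. No gene moved past 2-fold in opposite directions in these pairs. With the controls swapped 1 gene did, MMP1, at 0.479 in JQ1-A over pre-treatment and 3.0 in JQ1-B over DMSO. Library-total scaling weighs on the split between rises and falls: with TMM scaling, which shifts these log2 ratios by 0.25 and 0.21, the counts were 136 up and 161 down in JQ1-A and 159 up and 173 down in JQ1-B. Rises made up 10.4% and 18.3% of the moved genes under library totals and 45.8% and 47.9% under TMM.

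Genes on 1 list alone had mostly moved the same way in the other selection. Of the 212 genes that fell past 2-fold in JQ1-A alone, 210 were also lower in JQ1-B, with a median log2 ratio of -0.82, and 182 were lower by 1.5-fold. Of the 144 that fell in JQ1-B alone, 143 were lower in JQ1-A (median -0.88). For rises, 27 of 27 genes of JQ1-A and 56 of 59 of JQ1-B had moved the same way, with medians of 0.87 and 0.72. These counts inherit the scaling described for the lists, under which falls outnumbered rises among all genes. Past 1.5-fold with an interval leaving out equality, 1280 of 4834 genes were lower and 275 higher in JQ1-B over pre-treatment. In JQ1-A over DMSO, 1520 of 4832 were lower and 185 higher. A shared downward direction alone is therefore weak evidence of a shared response.

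**Figure D2:**
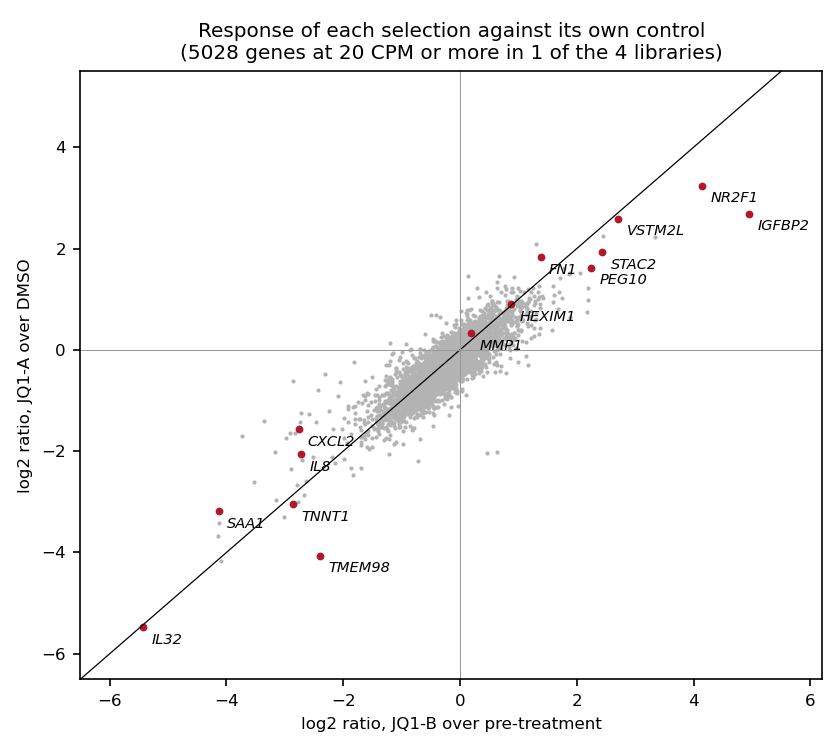
Log2 ratio of JQ1-B over pre-treatment (x axis) and of JQ1-A over DMSO (y axis), both from library-total CPM, for 5028 genes at 20 CPM or more in at least 1 of the 4 libraries; the diagonal marks equal responses. Named genes are red: IL32 sits near the diagonal at -5.43 and -5.48, TMEM98 lies below it, and IGFBP2 at 4.95 and 2.69 lies to its right.

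Genes of the BET and P-TEFb machinery lay within 1.5-fold between the selections. Of 14 tested members, 6 rose and none fell, beside 20.5% and 19.9% of all genes, with a median log2 fold change of 0.34 against 0.02 for all genes. HEXIM1, the inhibitor of P-TEFb that is widely used as a readout of BET inhibition, measured 30.1 CPM in JQ1-A and 31.7 in JQ1-B against 17.4 and 16.1 without drug (log2 fold change 1.13 ± 0.13 SE, adjusted p = 0.000441, edgeR). BRD2, a BET protein, measured 91.8 and 104 CPM. MYC, a transcription factor often repressed by acute BET inhibition, measured 522 CPM in JQ1-A and 401 in JQ1-B, and both exceeded pre-treatment (263) and DMSO cells (356). It rose by 0.83 ± 0.17 SE on the log2 scale (adjusted p = 0.00523, edgeR) and was the member with the highest ratio between the selections, 1.30 (interval 1.26 to 1.34).

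The largest ratio among all genes compared was in CXCL2, a chemokine that attracts neutrophils and is a target of NF-kB. It measured 170 CPM in JQ1-A and 65.9 in JQ1-B, a ratio of 2.58 (interval 2.42 to 2.76), against 442 in pre-treatment and 504 in DMSO cells. CXCL2 fell in both selections (log2 fold change -1.75 ± 0.34 SE, adjusted p = 0.00441, edgeR), and the fall was deeper in JQ1-B. CXCL3, its close paralog, measured 55.4 and 27.2 CPM against 96.0 and 65.2, a ratio of 2.03 (interval 1.83 to 2.26), and its JQ1 change was not called (adjusted p = 0.0776, edgeR). Reads of CXCL2 and CXCL3 are partly alike, so the split of counts between them is uncertain. IL8, the neutrophil chemokine now named CXCL8, measured 207 and 131 CPM against 862 and 867.

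NFKBIA and NFKBIZ, genes that NF-kB itself induces, followed the chemokines. NFKBIA measured 141 CPM in JQ1-A and 90.5 in JQ1-B, a ratio of 1.55 (interval 1.46 to 1.65), against 314 and 334 without drug. NFKBIZ measured 23.5 and 13.4 CPM against 32.1 and 36.2. Across the NF-kB and inflammatory list, 15 of 26 tested members fell and 1 rose (median log2 fold change -1.14), beside 19.9% and 20.5% of all genes. Among its 10 members at 20 CPM, 9 were higher in JQ1-A, with a median log2 ratio of 0.60, while 36.1% of all genes were higher in JQ1-A and their median was -0.06. RELA, a subunit of NF-kB, was even at 24.4 and 23.4 CPM, and IL18 measured 89.9 and 94.6 CPM. The most repressed member, IL32, was lower in JQ1-A, against the direction of the chemokines.

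The promoters of these genes were searched because CXCL2, CXCL3, NFKBIZ and NFKBIA moved together. Sequences are from RefSeq (GRCh38.p14) and run from 250 bases before to 50 bases after the transcription start, 5′ to 3′ on the gene's strand. Capitals mark matches to the NF-kB motif on either strand.
CXCL2, chr4:74099146-74099445, minus strand: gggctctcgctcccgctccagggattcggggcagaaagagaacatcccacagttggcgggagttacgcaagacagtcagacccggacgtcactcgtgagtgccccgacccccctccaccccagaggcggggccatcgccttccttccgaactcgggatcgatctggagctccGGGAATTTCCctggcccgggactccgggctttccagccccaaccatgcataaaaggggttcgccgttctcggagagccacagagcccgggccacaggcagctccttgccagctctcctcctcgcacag
CXCL3, chr4:74038640-74038939, minus strand: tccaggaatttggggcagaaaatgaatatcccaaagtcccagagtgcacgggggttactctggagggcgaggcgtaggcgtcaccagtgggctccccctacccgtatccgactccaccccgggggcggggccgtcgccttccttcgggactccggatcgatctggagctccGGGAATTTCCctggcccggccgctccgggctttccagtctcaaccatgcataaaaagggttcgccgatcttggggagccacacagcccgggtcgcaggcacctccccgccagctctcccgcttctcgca
NFKBIZ, chr3:101827740-101828039, plus strand: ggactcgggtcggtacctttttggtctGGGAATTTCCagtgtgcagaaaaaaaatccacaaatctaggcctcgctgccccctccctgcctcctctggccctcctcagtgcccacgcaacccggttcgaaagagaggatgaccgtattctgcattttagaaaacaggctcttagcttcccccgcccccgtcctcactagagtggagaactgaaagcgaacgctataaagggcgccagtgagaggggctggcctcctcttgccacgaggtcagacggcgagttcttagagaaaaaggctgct
NFKBIA, chr14:35404700-35404999, minus strand: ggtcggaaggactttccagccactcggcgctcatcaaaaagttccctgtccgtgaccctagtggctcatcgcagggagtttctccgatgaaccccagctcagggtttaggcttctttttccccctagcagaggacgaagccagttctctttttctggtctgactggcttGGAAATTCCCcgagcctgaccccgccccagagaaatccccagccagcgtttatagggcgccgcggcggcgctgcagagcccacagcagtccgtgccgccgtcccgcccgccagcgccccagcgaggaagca

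The motif began 78 and 79 bases before the start in CXCL2 and CXCL3, whose windows are alike around it, 223 bases before it in NFKBIZ, and 81 bases before it, on the opposite strand, in NFKBIA. It was present in 523 of 27305 promoters of that length (1.92%), in 4 of the 23 matched genes higher in JQ1-A past 1.5-fold, and in 0 of 13 matched genes higher in JQ1-B. The other motifs searched, also on both strands, were found in other genes. The AP-1 motif TGACTCA was present in CPA4 and AMIGO2 (4.92% of all promoters), and the cyclic AMP element TGACGTCA in MAFF and FN1 (1.98%). The serum response element was searched as an exact sequence only, which was present in EGR1 (0.0366%). Variant forms of that element were not searched, so how common it is among promoters or these genes was not measured. The motifs were chosen after the genes were seen, and a match describes the letters of the window only.

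Immediate early genes, which cells switch on within minutes of a growth or stress signal, showed the most uniform difference between the selections. All 21 members at 20 CPM were higher in JQ1-A, beside 36.1% of all genes. Their log2 ratios ran from 0.05 to 0.93, with a median of 0.38. FOSB, a component of AP-1, measured 33.1 CPM in JQ1-A and 17.4 in JQ1-B, a ratio of 1.90 (interval 1.66 to 2.18). EGR1, a growth-factor-induced zinc-finger regulator, measured 195 and 128 CPM, ZFP36, a protein that destabilises inflammatory mRNAs, 112 and 69.0 CPM, and FOS 37.4 and 24.9 CPM. In the JQ1 test 12 of 27 members rose and 1, JUN, fell (median log2 fold change 0.51), beside 20.5% and 19.9% of all genes.

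The undrugged libraries differed in the same list. FOSB measured 29.8 CPM in DMSO cells and 12.9 in pre-treatment cells, FOS 60.4 and 26.4, IER2 190 and 114, and EGR1 148 and 105. FOSB in DMSO was nearer to JQ1-A than to JQ1-B, whereas FOS and IER2 were higher in DMSO than in either selection. In the single-drug libraries the summed level of the list was 1240 CPM with paclitaxel and 3480 with palbociclib. In the selections it was 2850 CPM in JQ1-A and 2200 in JQ1-B. Paclitaxel and palbociclib were given in different experiments, so drug and experiment cannot be told apart in the single-drug libraries. Of the 21 members, 18 were higher in DMSO than in pre-treatment (median log2 ratio 0.41), against 54.9% of all genes. Between JQ1+paclitaxel and JQ1+palbociclib the list did not separate, with 10 of 21 members higher in JQ1+paclitaxel and a median of -0.01.

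The difference was spread over cells. After thinning to 10000 UMIs, immediate early genes summed to a median of 28 UMIs per cell in JQ1-A (quartiles 21 and 37) and 22 in JQ1-B (16 and 29). DMSO cells had 28 (21 and 36) and pre-treatment cells 22 (16 and 29). NF-kB and inflammatory genes behaved otherwise, with medians of 7 UMIs in JQ1-A and 5 in JQ1-B but upper deciles of 24 and 15.4. In undrugged cells their medians were 26 in DMSO and 25 in pre-treatment. The upper quartiles were 14 and 8 and the lower quartiles 4 and 3, so the gap between the selections was wider among cells with many of these UMIs.

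**Figure D3:**
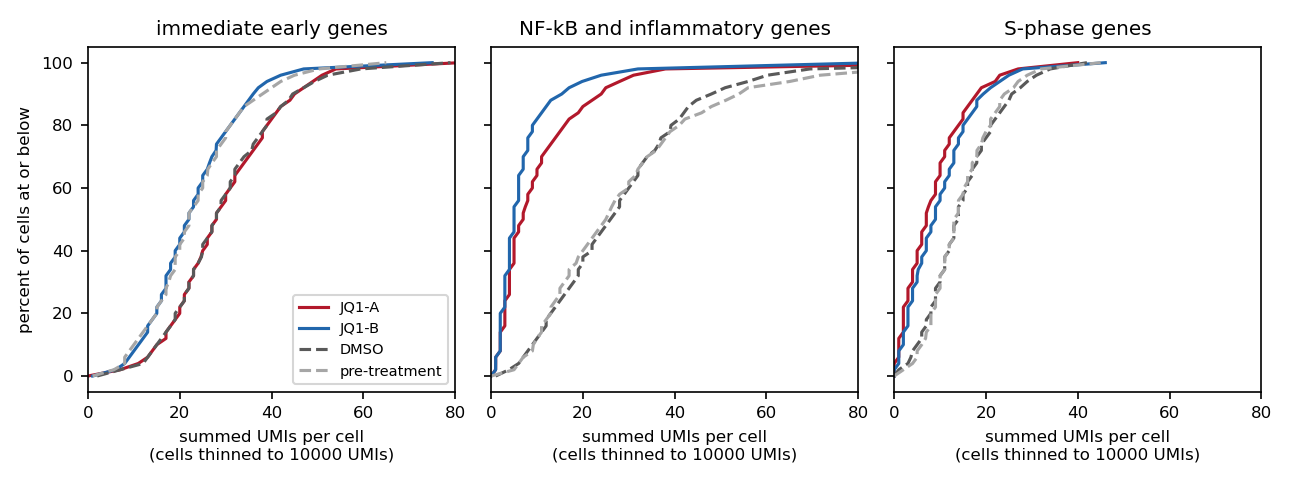
Percent of cells (y axis) with at most the given number of UMIs summed over a gene list (x axis), each cell thinned to 10000 UMIs, for JQ1-A (650 cells), JQ1-B (837), DMSO (445) and pre-treatment (583). For immediate early genes the JQ1-A curve runs with DMSO and the JQ1-B curve with pre-treatment; for NF-kB genes both selections lie left of both undrugged libraries, and for S-phase genes JQ1-A lies furthest left.

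Shares of cells with at least 1 UMI followed the summed levels. CXCL2 was seen in 45.4% of JQ1-A cells and 26.3% of JQ1-B cells (exact 95% binomial intervals 41.5 to 49.3% and 23.3 to 29.4%), against 84.9% in DMSO and 79.2% in pre-treatment. PTPRC, which these cells should lack, was seen in at most 0.674% of the cells of these libraries, at the same depth. The 5% of cells with the most CXCL2 held 34.3% of its UMIs in JQ1-A and 54.9% in JQ1-B, so CXCL2 was held by a smaller share of cells in JQ1-B. EGR1 was seen in 77.8% and 60.9% of cells.

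Of 26 tested matrix genes, 15 rose and 3 fell (median log2 fold change 0.67), beside 20.5% and 19.9% of all genes. Of the 21 at 20 CPM, 16 were higher in JQ1-A, beside 36.1% of all genes. The summed level of the list did not follow these counts, with 7050 CPM in JQ1-A and 7240 in JQ1-B against 4420 in pre-treatment and 8340 in DMSO. FN1, which encodes fibronectin, measured 247 CPM in JQ1-A and 146 in JQ1-B, against 56.1 and 69.6 without drug (log2 fold change 1.90 ± 0.23 SE, adjusted p = 0.000608, edgeR). It was seen in 76.2% of JQ1-A cells and 64.0% of JQ1-B cells. FBLN1, a matrix glycoprotein outside the list, measured 26.1 and 15.4 CPM. Between the undrugged libraries 18 of 21 members were higher in DMSO than in pre-treatment (median log2 ratio 0.33), and in the combination libraries 2 of 21 were higher in JQ1+paclitaxel than in JQ1+palbociclib (median -0.52). By contrast SPARC measured 118 CPM in both selections and CTGF, a matrix-associated growth factor, 161 and 160 CPM.

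MMP1, a collagenase, went the other way. It measured 13.0 CPM in JQ1-A and 31.0 in JQ1-B, a ratio of 2.38 in favour of JQ1-B (interval 2.03 to 2.79). The undrugged libraries were split in the same manner, with 10.4 CPM in DMSO and 27.2 in pre-treatment. JQ1-A was thus near DMSO and JQ1-B near pre-treatment. The pre-treatment library belonged to neither experiment and is no vehicle control of JQ1-B. MMP1 was held by few cells: 5.69% of JQ1-A cells and 9.08% of JQ1-B cells had a UMI, and the top 5% of cells held 92.8% and 83.5% of its UMIs. Its JQ1 change was not called (log2 fold change 0.46 ± 0.43 SE, adjusted p = 0.414, edgeR).

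Keratins were divided. KRT75, a hair-follicle keratin, measured 21.1 CPM in JQ1-A and 8.23 in JQ1-B, a ratio of 2.57 (interval 2.13 to 3.11), from 84.6 and 56.0 without drug. It fell in both selections (log2 fold change -2.03 ± 0.36 SE, adjusted p = 0.00283, edgeR). KRT7, a simple-epithelium keratin, measured 501 CPM in JQ1-A and 870 in JQ1-B, against 811 in pre-treatment and 929 in DMSO cells, so JQ1-A alone lay below both undrugged libraries. It was seen in 77.1% of JQ1-A cells and 94.6% of JQ1-B cells, against 97.8% in DMSO.

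SEPP1, the selenium transport protein, measured 56.1 CPM in JQ1-A and 25.9 in JQ1-B, a ratio of 2.17 (interval 1.95 to 2.42), against 15.2 and 23.3 without drug. It rose with JQ1 (log2 fold change 1.36 ± 0.34 SE, adjusted p = 0.0118, edgeR), and JQ1-B lay only just above DMSO. MAFF, a small MAF transcription factor, measured 29.8 and 16.8 CPM, and the kinase gene SIK1 22.9 and 12.9 CPM. For SIK1, JQ1-A lay above and JQ1-B below both undrugged libraries (17.2 and 14.2 CPM), and its JQ1 change was not called (adjusted p = 0.199, edgeR).

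Among genes higher in JQ1-B, DKK1, a secreted WNT antagonist, measured 119 CPM against 63.2 in JQ1-A, a ratio of 1.89 (interval 1.75 to 2.03), with 161 and 105 without drug. LY6K, a GPI-anchored surface protein, measured 30.8 and 16.3 CPM in JQ1-B and JQ1-A against 110 and 90.7, so it fell in both and further in JQ1-A. SFN, the 14-3-3 sigma protein of epithelial cells, fell in the same pattern, with 20 and 11.6 CPM against 46.7 and 47.7. AQP3, a water and glycerol channel, rose in both, to 32.6 CPM in JQ1-B and 19.7 in JQ1-A. AMIGO2, CPA4, AKAP12, IGFBP6 and TLCD1 had ratios between 1.62 and 1.84 in favour of JQ1-B.

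**Figure D4:**
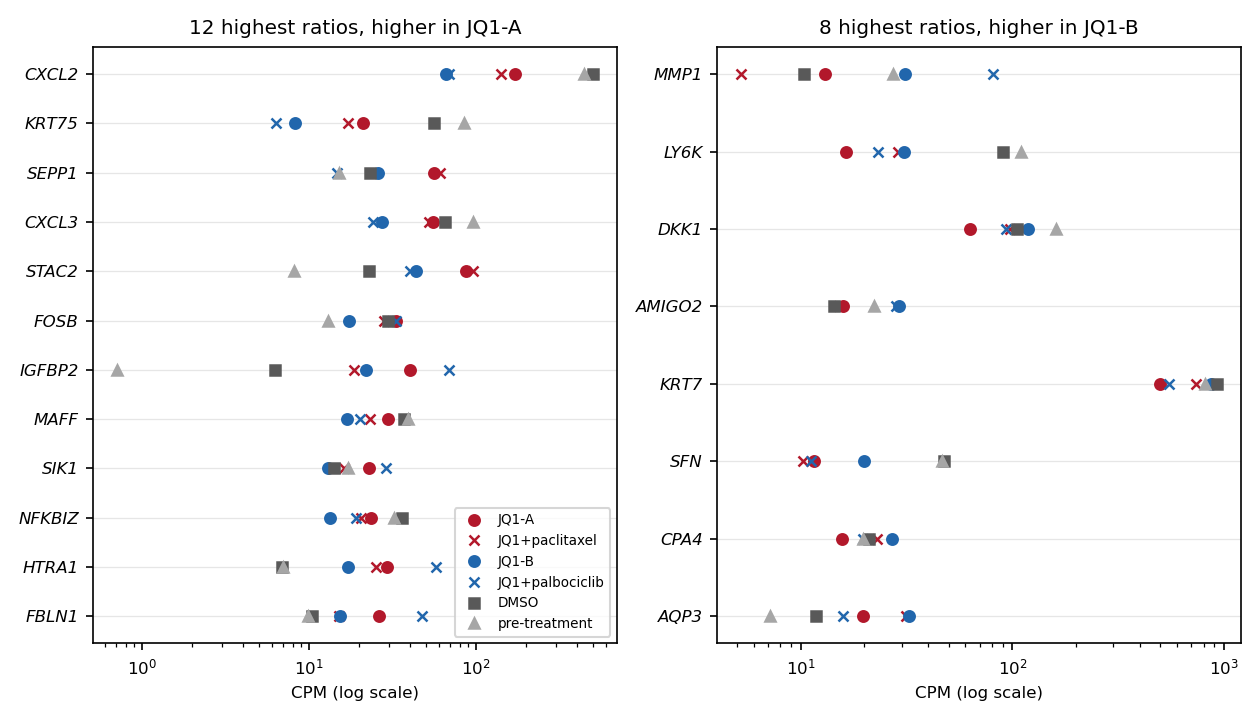
CPM (x axis, log scale) of the 12 genes with the highest ratios in favour of JQ1-A and the 8 with the highest in favour of JQ1-B, in JQ1-A, JQ1-B, the 2 combination libraries and the 2 libraries without drug. Red symbols belong to the paclitaxel experiment and blue to the palbociclib experiment. Among the 12, the red and blue pairs do not overlap for CXCL2, KRT75, SEPP1, CXCL3, STAC2, MAFF and NFKBIZ. JQ1+palbociclib is the highest for FOSB, IGFBP2, SIK1, HTRA1 and FBLN1.

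The size of the JQ1 response was also compared. Of 942 genes called lower and at 20 CPM, 671 (71.2%) were lower in JQ1-A than in JQ1-B, and of 965 called higher, 475 (49.2%) were higher in JQ1-A. Of all 4313 genes, 2757 were lower in JQ1-A and 36.1% higher. Under TMM between the libraries, which adds 0.041 to every log2 ratio, the shares were 61.6% and 59.7%, and 45.9% of all genes were higher in JQ1-A. The median log2 ratio of the genes called higher was -0.003 with library totals and 0.038 with TMM, so its sign depended on the scaling, and that of the genes called lower was -0.088 and -0.047.

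Most of the 49 genes past 1.5-fold lay, in both selections, on the same side of both undrugged libraries. Of the 31 higher in JQ1-A, 13 lay above both undrugged libraries in both selections and 10 lay below both in both. Of the 18 higher in JQ1-B, 2 lay above and 6 below in both selections. Among all 9288 tested genes, 6971 (75.1%) were placed on the same side in this way, so the position is not particular to the 49. For 4 genes, PAQR4, ID3, LINC01116 and CPA4, JQ1-B lay above and JQ1-A below both undrugged libraries. No gene at 20 CPM was placed on opposite sides by at least 1.5-fold.

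Most DNA synthesis genes were lower in JQ1-A. Of 38 tested S-phase genes, 22 fell with JQ1 and none rose (median log2 fold change -0.46), beside 19.9% and 20.5% of all genes. Of the 17 at 20 CPM, 16 were lower in JQ1-A than in JQ1-B (median log2 ratio -0.21), and of all genes 2757 of 4313 were lower. CDC6, the loader of the replicative helicase, measured 14.7 CPM in JQ1-A and 22.1 in JQ1-B against 34.3 and 35.0. CLSPN, a replication checkpoint adaptor, measured 34.2 and 49.8 CPM, PCNA, the replication clamp, 51.7 and 54.5, whereas RRM1, a ribonucleotide reductase subunit, was the exception at 40.8 and 34.6. The median cell held 7 S-phase UMIs in JQ1-A and 9 in JQ1-B, against 14 in DMSO and 13 in pre-treatment. G2/M genes did not follow, with 23 of 37 higher in JQ1-A, beside 36.1% of all genes. Of the G1 cyclin, CDK and RB list, 9 of 11 members were lower in JQ1-A, among them CDK6 at 17.5 and 24.0 CPM and CCND1 at 253 and 297 CPM. Both selections exceeded the undrugged libraries in CCND1, at 193 CPM in pre-treatment and 181 in DMSO (log2 fold change 0.81 ± 0.11 SE). In the JQ1 test 3 of 19 members of this list rose and 3 fell, beside 20.5% and 19.9% of all genes. CDKN1A, the p21 inhibitor, was close at 51.2 and 54.7 CPM against 25 and 31.3, and it rose in the JQ1 test.

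Lipid synthesis genes leaned toward JQ1-B as a group. In the sterol and fatty acid list 17 of 18 members at 20 CPM were lower in JQ1-A (median log2 ratio -0.25), beside 2757 of all 4313 genes. None of them passed 1.5-fold. FASN, the fatty acid synthase, measured 80.8 CPM in JQ1-A and 108 in JQ1-B, against 99.8 and 109 without drug, and SCD, a desaturase, 173 and 209 CPM. FDPS, of the mevalonate branch, was even at 58.8 and 58.6 CPM. In the JQ1 test 5 of 27 members rose and 6 fell, near the shares of all genes (20.5% and 19.9%), and EBP, a sterol isomerase, fell to 117 and 134 CPM from 291 and 339.

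Other lists were split between the selections to varying degrees, beside 36.1% of all genes higher in JQ1-A. Mitochondrially encoded mRNAs were higher in JQ1-A for 10 of 12 members (median log2 ratio 0.22), for example MT-CYB at 4700 and 3960 CPM against 2700 and 2420. Cancer-testis genes were higher in JQ1-A for 8 of 9, and of these SPANXD (267 and 169 CPM) and CTAG2 (24.2 and 15.9 CPM) passed 1.5-fold. SPANX genes are near-identical copies, so the value of a single SPANX gene is uncertain. Interferon and MHC class I genes were higher in JQ1-A for 9 of 12, with HLA-B at 77.1 and 56.4 CPM. Unfolded protein response genes were lower in JQ1-A for 10 of 13 and hypoxia and glycolysis genes for 9 of 12, near the 2757 of all 4313 genes. With TMM, 38.5% and 33.3% of these members were higher in JQ1-A, against 45.9% of all genes. PGK1 was even at 245 and 241 CPM. The list of NR2F receptors and the IGF axis was divided, 3 of 7 members higher in JQ1-A, with IGFBP2 and IGFBP6 on opposite sides. Members of the NRF2 list were divided 9 and 9, and its most abundant gene, FTH1, a ferritin subunit, measured 51000 and 50000 CPM against 22300 and 22100. Histone genes (9 of 12), tubulins and kinesins (9 of 13) and identity genes (6 of 9) were lower in JQ1-A at near the share of all genes, 2757 of 4313. In the small BCL2 family 6 of 7 members were lower in JQ1-A, beside the same share. In a list of genes taken up in the study's text, 12 of 18 were lower in JQ1-A, near the share of all genes. That list was not chosen independently of these samples.

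The combination libraries give another pair from the same 2 experiments. CXCL2 measured 141 CPM in JQ1+paclitaxel and 68.5 in JQ1+palbociclib, KRT75 17.2 and 6.35, SEPP1 61.1 and 14.8, CXCL3 52.2 and 24.2, and MMP1 5.23 and 80.6. All 5 genes past 2-fold between JQ1-A and JQ1-B thus kept their direction there. Of the 31 genes higher in JQ1-A, 19 (61.3%) had both libraries of the paclitaxel experiment above both of the palbociclib experiment, against 35.2% of all genes higher in JQ1-A. Of the 18 higher in JQ1-B, 8 (44.4%) had the reverse order, against 46.7%. These counts reuse the JQ1-A and JQ1-B values that chose the genes, and a wide gap meets the order more easily. By the combination libraries alone, 20 of the 31 (64.5%) were higher in JQ1+paclitaxel, against 46.9% of all genes higher in JQ1-A. Of the 18, 9 were higher in JQ1+palbociclib, against 57.7% of all genes higher in JQ1-B. IGFBP2 turned over, with 18.5 CPM in JQ1+paclitaxel and 69.0 in JQ1+palbociclib, as did FN1 with 198 and 284. Between paclitaxel alone and palbociclib alone, 1 of the 31 genes higher in JQ1-A was higher with paclitaxel (39.3% of all genes higher in JQ1-A). Between DMSO and pre-treatment, 22 of the 31 were higher in DMSO (71.0%, against 63.3%). The partner drug and the experiment cannot be told apart in these libraries.

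A fit over all 8 libraries, with additive terms for the 3 drugs and for the experiment, set the difference against a spread from other libraries. It called 0 of 9288 genes (0.0%) for the experiment (edgeR, adjusted p under 0.05), and 19 genes had an unadjusted p under 0.05. By DESeq2 the calls were also 0, and 13 genes passed before adjustment. KRT7 had a log2 difference of 0.70 in favour of the palbociclib experiment (adjusted p = 1.0, edgeR), and CXCL2 one of -1.52 (adjusted p = 1.0, edgeR). Leaving out 1 library at a time, the count at an unadjusted p under 0.05 reached 288 without palbociclib, 284 without JQ1+palbociclib, 36 without JQ1+paclitaxel and 35 without paclitaxel, with 0 called each time. The fit has 3 residual degrees of freedom and assumes that drug effects add. It also counts the pre-treatment library, which belonged to neither experiment, with the paclitaxel experiment. A missed threshold does not show that the experiments were alike.

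Along the genome, the ratio stood furthest from the centre on the X chromosome. Among chromosomes with at least 30 genes, the median log2 ratio, centred on all genes, ran from -0.073 to 0.076 on the autosomes and was 0.13 on X. Of 130 X-linked genes at a mean of 20 CPM, 99 (76.2%) lay above the centre, and only 3 of them passed 1.5-fold, so the shift was small and broad. X-linked genes were also higher in JQ1-A than in JQ1+paclitaxel (centred median 0.18), and the JQ1-B to JQ1+palbociclib pair had a median of 0.01. The shift did not recur between the combination libraries, where JQ1+paclitaxel over JQ1+palbociclib had a median of -0.068 (42.3% above the centre). DMSO over pre-treatment had a median of 0.064 (60.8% above). Against undrugged cells the X median was -0.32 in JQ1-A over DMSO and -0.43 in JQ1-B over pre-treatment. Positions are from GENCODE on GRCh37, the build named for the files.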

How the data were processed

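The authors deposited a table of UMI counts per gene and cell, with the library of each cell, from 10x 3′ libraries of SUM159 cells; Cell Ranger, Seurat and the hg19 build are named in the submitters' processing notes and methods. From these counts, UMIs were summed per library, and the ratio of CPM (library totals) between JQ1-A and JQ1-B was given an exact conditional binomial 95% interval. Genes needed 20 CPM in the higher library. No doublets were called, and cells failing the study's filter were kept, with their removal tried as an alternative.

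Summed counts were tested with edgeR 4.0.16 in R 4.3.3 (TMM, quasi-likelihood), JQ1-A and JQ1-B against pre-treatment and DMSO, and in an 8-library fit with drug and experiment terms. DESeq2 1.42.0 was the alternative. Simulated counts were used to check the tests. Text names the 10 largest called rises and falls past 20 CPM in which the selections and the undrugged libraries did not overlap. It also names genes past 2-fold between the selections. As only 5 passed, the 12 highest per direction at 1.5-fold, and other members of the lists, were named after their values were seen; some items are not reported here. Members, lists and motifs were chosen with earlier results of these data known.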

Additional observations from a re-analysis of the deposited data

How the results depend on the processing

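Under the alternatives run, no gene named by the rule changed direction. The test of both selections against undrugged cells called 2282 genes with a floor of 20 CPM (1214 higher, 1068 lower), where fewer genes were tested. DESeq2 called 2737, of which 1214 were higher; the cause was not tested. Leaving out 1 library at a time gave 1536 to 4123 calls, 730 to 2119 higher and 806 to 2004 lower, lowest without JQ1-A and next lowest without JQ1-B (2044). Genes past 2-fold between the selections numbered 8 with TMM, 3 with a floor of 50 CPM and 49 at 1.5-fold, of which 18 passed a floor of 50 CPM. With TMM, the medians of the NR2F and IGF list (-0.001 to 0.039, and 0.008 without mitochondrially encoded genes in the total), the NRF2 list (-0.037 to 0.004), the SUM159 markers (-0.036 to 0.005) and the genes called higher (-0.003 to 0.038) turned from negative to positive. With DMSO and pre-treatment swapped as controls, shared rises were 23.7% and 51.2% of the lists, and MMP1 moved past 2-fold in opposite directions. At 1.5-fold, 119 rises and 990 falls were shared, and with TMM 76 (47.8% of the JQ1-B list) and 89. Thinned to 5000 UMIs, CXCL2 was seen in 34.0% of JQ1-A and 16.9% of JQ1-B cells and MMP1 in 2.73% and 6.85%. STAC2 (adjusted p = 0.0603) and SAA1 (adjusted p = 0.0800) lost their calls in the 8-library edgeR fit. The experiment term could not be estimated without JQ1-B. No paired analysis was possible because the groups compared share fewer than 2 replicate numbers in the labels. Depth limits genes under 20 CPM.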
